A study of Mus musculus with 8 samples.

Results

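The transcripts described here encode 10 secreted factors through which cardiac fibroblasts can act on neighbouring vessels and epithelia: the vascular endothelial growth factors Vegfa, Vegfb and Vegfc, the angiopoietins Angpt1 and Angpt2, the angiopoietin-like factor Angptl4, hepatocyte growth factor (Hgf) and the fibroblast growth factors Fgf2, Fgf7 and Fgf10. They were chosen by name, with no threshold on their values but with earlier results of these data known, and all 10 were among the 18957 genes listed in each library. RNA was sequenced from cardiac fibroblasts of 3 to 4 week old mice of a mixed C57BL/6 background, in 4 libraries of wild-type (WT) littermates and 4 of Pdgfra-Cre:LmnaF/F mice. In the latter, a bacterial artificial chromosome transgene carrying Pdgfra regulatory sequence drives Cre recombinase, and Cre excises exon 2 of both floxed alleles of Lmna, which encodes the nuclear envelope proteins lamin A and C. Hearts were digested with collagenase, and live cells positive for PDGFRA and negative for blood lineage antigens were sorted in both genotypes; endothelial cells were not gated out by an antigen of their own. The WT mice carried neither Cre nor floxed alleles, so an effect of the transgene and one of the Lmna deletion cannot be told apart, and the Pdgfra-Cre line is also active in some cardiac myocytes. The sources do not say whether each library came from its own mouse, so p-values measure the spread between these libraries.

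Vascular endothelial growth factors bind receptor tyrosine kinases on endothelial cells and drive vessel sprouting and permeability, with VEGFA acting mainly through KDR, VEGFB through FLT1 and VEGFC through FLT4 on lymphatic vessels. Angiopoietin 1 activates the receptor TEK and steadies vessels, whereas angiopoietin 2 mostly acts as its context-dependent antagonist. Hepatocyte growth factor signals through MET, and FGF7 and FGF10 signal mainly through the epithelial splice form of FGFR2, so mesenchymal cells that make these ligands commonly address cells other than themselves.

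The libraries held 2080555 to 12502949 gene counts, and WT replicate 2 was the shallowest by a wide margin, the next total being 6345584. Lmna itself was lower in every Pdgfra-Cre:LmnaF/F library, at 365 ± 88.4 CPM (counts per 1000000, scaled with trimmed mean of M values, or TMM, factors; SD, n = 4) in WT and 111 ± 20 (SD, n = 4) in Pdgfra-Cre:LmnaF/F, a log2 fold change of -1.72 with an edgeR adjusted p of 0.00182. The sorted cells carried fibroblast transcripts in both genotypes: 8 markers summed to between 82819 and 96809 CPM in WT and between 80941 and 93525 CPM in Pdgfra-Cre:LmnaF/F, with Gsn the largest part, and none of the 8 was called, their log2 fold changes running from -0.51 for Col1a1 and Col3a1 to 0.36 for Dcn. A single library stood apart, Pdgfra-Cre:LmnaF/F replicate 4, in which 9 cardiac myocyte markers summed to 5855 CPM against 333 to 1058 CPM in the other 7. It was also the highest for leukocyte markers, at 448 CPM against 43.8 to 184 CPM. Its mural cell marker sum was 613 CPM against 233 to 439 CPM. Of these mural markers Des (188 against 10.9 to 54.8 CPM) and Rgs5 (204 against 59.1 to 168 CPM) were highest there, and the others were not. The labels do not give sex, and Y-linked transcripts were present in WT replicates 1, 2 and 4 and in Pdgfra-Cre:LmnaF/F replicate 4 but not in the other 4 libraries, so sex and genotype were partly confounded. Over 13036 genes that passed the filter on low counts, edgeR's quasi-likelihood test called 53, or 0.407%, at an adjusted p under 0.05, with 23 higher and 30 lower in Pdgfra-Cre:LmnaF/F.

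None of the 10 factors was among the called genes, although all 10 passed the filter. Of the 10 fitted log2 fold changes, 4 were above 0 and 6 below, with a median of -0.12 beside 0.02 over all genes tested. Without Pdgfra-Cre:LmnaF/F replicate 4, 6 were above 0 and 4 below, with a median of 0.10 beside 0.00. The balance of signs thus changed with the library left out. At an unadjusted p under 0.05, which 11.8% of all tested genes reached (5.70% lower and 6.14% higher), 1 factor was found, Vegfa. It was also the 1 factor whose groups did not overlap, as was seen for 8.03% of all tested genes (3.97% lower and 4.06% higher). DESeq2, which called 1.43% of all genes it tested lower, called 1 factor, Vegfa, lower. Among the other 9, log2 fold changes ran from -0.44 to 0.62, adjusted p-values from 0.728 to 0.967, and every 95% interval held 0.

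**Figure D1:**
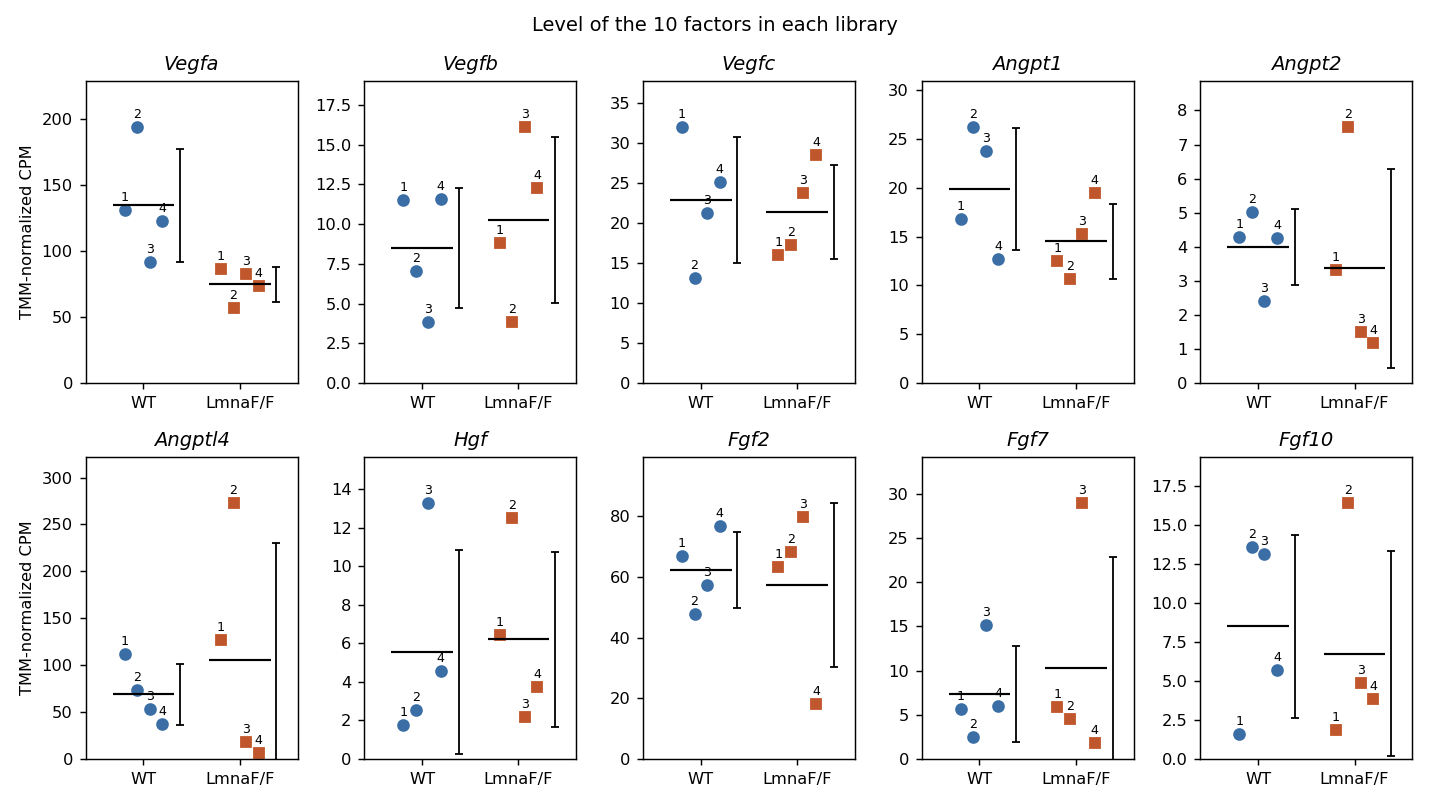
TMM-normalized CPM (vertical axes, each from 0) of the 10 factors in the WT and Pdgfra-Cre:LmnaF/F (LmnaF/F) libraries. Points are libraries with their replicate numbers, horizontal lines are means of 4 libraries, and bars span 1 SD either way, ending at 0 where they would go below it; the 4 Pdgfra-Cre:LmnaF/F values of Vegfa, 56.8 to 86.6 CPM, all sit under the 4 WT values, and the groups overlap for the other 9.

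The start regions of Vegfa and Vegfb are shown because Vegfa had the lowest p of the 10 factors and Vegfb is of the same family. RefSeq start-site windows of 300 bases (GRCm38.p6) were at hand for 7 of the 10 factors, and none for Angpt1, Angpt2 or Angptl4. The windows of Vegfa (chr17:46032328-46032627, minus strand) and Vegfb (chr19:6987602-6987901, minus strand) are printed 5′ to 3′, with capitals marking the GC box letters GGGCGG or their complement CCGCCC, and Vegfa has a further window at an internal start that is not shown.
Vegfa: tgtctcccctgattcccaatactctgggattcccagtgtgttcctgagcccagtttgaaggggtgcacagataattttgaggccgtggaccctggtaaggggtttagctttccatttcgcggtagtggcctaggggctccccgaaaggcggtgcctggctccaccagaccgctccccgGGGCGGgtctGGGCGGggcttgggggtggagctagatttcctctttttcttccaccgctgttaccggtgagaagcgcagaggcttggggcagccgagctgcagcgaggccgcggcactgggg
Vegfb: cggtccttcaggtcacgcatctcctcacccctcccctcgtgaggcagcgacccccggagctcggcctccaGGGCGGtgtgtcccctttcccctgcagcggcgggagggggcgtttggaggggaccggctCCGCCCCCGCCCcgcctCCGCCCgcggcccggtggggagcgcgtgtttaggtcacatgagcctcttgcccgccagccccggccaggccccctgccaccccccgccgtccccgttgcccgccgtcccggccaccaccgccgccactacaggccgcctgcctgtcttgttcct
The Vegfa window held 2 GC boxes and the Vegfb window 4, at a GC content of 62% and 75.3% beside a median of 52.7% over 32851 windows. A GC box stood in 6 of the 9 windows of these factors and in 35.7% of all windows. The letters ACGTG or CACGT, the core of the hypoxia response element, were found in 1 of the 9, the internal Vegfa window, and in 19.6% of all, while TATAAA, TGACGTCA and CACGTG were found in none of the 9 (13.6%, 1.79% and 7.15% of all; each on both strands, and every CACGTG also holds an ACGTG). These are matches of letters and say nothing on binding in these cells.

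Vegfa, the principal growth factor for endothelial cells, is encoded on chromosome 17 (46016993 to 46032369, minus strand, mm10; GENCODE M21). Its level was 131, 194, 91.7 and 123 CPM in the 4 WT libraries and 86.6, 56.8, 82.7 and 73.9 CPM in the 4 Pdgfra-Cre:LmnaF/F libraries, listed here and throughout in the order of replicates 1 to 4. All 4 Pdgfra-Cre:LmnaF/F libraries lay below all 4 WT libraries, the nearest pair being WT replicate 3 at 91.7 and Pdgfra-Cre:LmnaF/F replicate 1 at 86.6 CPM, and the shallow WT replicate 2 was the highest of the 8. The means were 135 ± 42.7 and 75 ± 13.2 CPM (SD, n = 4 each), a log2 fold change of -0.84 (SE 0.23, 95% interval -1.34 to -0.34), or 1.79-fold lower in Pdgfra-Cre:LmnaF/F. The unadjusted p of 0.0024 ranked 221 among the 13036 genes, and the edgeR adjusted p was 0.141. Without WT replicate 2 the log2 fold change was -0.62 (edgeR adjusted p = 0.404).

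The call on Vegfa changed with the test and the filter. DESeq2 gave the same log2 fold change of -0.84 with an adjusted p of 0.0471, edgeR without the filter gave -0.86 with 0.0231, and DESeq2 with 1 factor of unwanted variation (RUVr) gave -0.82 with 0.00615. In these fits 1.43%, 0.913% and 1.85% of the tested genes were called lower, against 0.230% in the edgeR fit with the filter. Direction held in every fit made, with log2 fold changes between -1.04, in the libraries with Y-linked transcripts alone, and -0.28, in those without. All 4 Pdgfra-Cre:LmnaF/F libraries lay below all 4 WT libraries, so leaving out or splitting libraries could hardly have turned the sign.

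Other features of the libraries were set beside the Vegfa values. Endothelial markers, which belong to the main cells addressed by VEGFA, covered 10 genes, all detected. Their sums overlapped, at 594 to 827 CPM in WT and 469 to 620 CPM in Pdgfra-Cre:LmnaF/F. Tek was the largest part, at 377 to 543 CPM in WT and 287 to 342 CPM in Pdgfra-Cre:LmnaF/F. None of the 10 was called, 7 fitted values were below 0 and 3 above, and WT replicate 2, the library with the most Vegfa, had the lowest WT sum. Without Pdgfra-Cre:LmnaF/F replicate 4 the sums of that group were 469 to 501 CPM, under every WT library, the list's median log2 fold change was -0.53 in place of -0.31, and the endothelial cadherin Cdh5 was called lower (log2 fold change -1.62, edgeR adjusted p = 0.0425). A list of 22 early response genes that tissue dissociation can raise summed to 3876 to 7042 CPM in WT and 9324 to 14559 CPM in Pdgfra-Cre:LmnaF/F, without overlap. Where Y-linked transcripts were present, Vegfa was at 123 to 194 CPM in 3 WT libraries and 73.9 CPM in the 1 Pdgfra-Cre:LmnaF/F library, and where they were absent it was at 91.7 CPM in the 1 WT library and 56.8 to 86.6 CPM in 3 Pdgfra-Cre:LmnaF/F libraries. With Y-linked expression as a covariate, the log2 fold change of Vegfa was -0.68 (edgeR adjusted p = 0.255). The part of the endothelial and early response transcripts in the Vegfa difference was not tested, and in sorted bulk RNA fewer cells that make a transcript and less transcript per cell cannot be told apart.

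**Figure D2:**
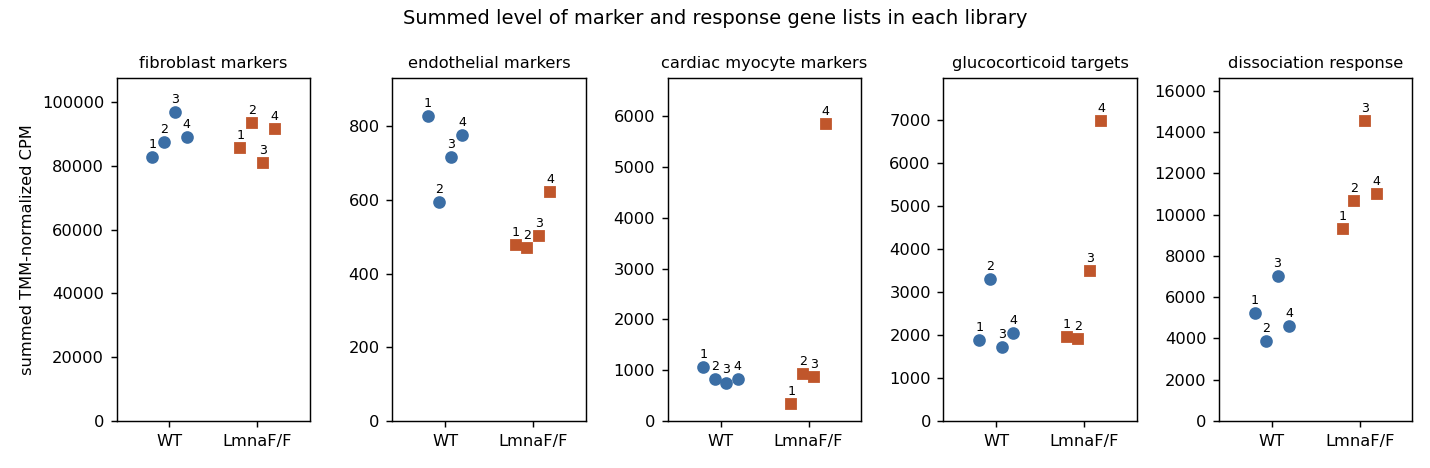
Summed TMM-normalized CPM (vertical axes, each from 0) of 5 gene lists in each WT and Pdgfra-Cre:LmnaF/F (LmnaF/F) library, with replicate numbers. The dissociation response sums do not overlap between genotypes, and Pdgfra-Cre:LmnaF/F replicate 4 is the highest library for cardiac myocyte markers, at 5855 CPM, and for glucocorticoid targets, at 6990 CPM.

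Vegfb, linked mostly to fatty acid handling and survival rather than sprouting, was at 11.5, 7.04, 3.83 and 11.6 CPM in the 4 WT libraries and 8.79, 3.86, 16.1 and 12.3 CPM in the 4 Pdgfra-Cre:LmnaF/F libraries. Low and high libraries were found in both genotypes, so the groups overlapped through most of their range. Its log2 fold change of 0.26 had a wide interval (95% interval -0.93 to 1.46; edgeR adjusted p = 0.914). The low values rest on few reads: the 24 counts behind WT replicate 3 have an exact Poisson 95% interval of 2.46 to 5.71 CPM, which covers counting error alone.

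Vegfc, the lymphatic growth factor, was at 32, 13.1, 21.3 and 25.1 CPM in WT and 16, 17.3, 23.8 and 28.5 CPM in Pdgfra-Cre:LmnaF/F. Both the highest and the lowest library were WT, and the Pdgfra-Cre:LmnaF/F values lay between them. At -0.11 (95% interval -0.84 to 0.62; edgeR adjusted p = 0.948), its log2 fold change had an interval that leaves out a change of 2-fold in either direction, as did that of Fgf2 among the other factors. The sign changed with the library left out: without WT replicate 1 it was 0.10.

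Angpt1, the agonist ligand of TEK, was at 16.8, 26.2, 23.8 and 12.7 CPM in the 4 WT libraries and 12.5, 10.7, 15.3 and 19.5 CPM in the 4 Pdgfra-Cre:LmnaF/F libraries. The 2 highest libraries were WT and the 2 lowest Pdgfra-Cre:LmnaF/F, with the other 4 interleaved. Its fitted difference was -0.44 on the log2 scale (95% interval -1.23 to 0.35), and the edgeR adjusted p of 0.728 was the lowest of the 9 factors other than Vegfa. Angpt1 was lowest in Pdgfra-Cre:LmnaF/F replicate 2 and highest in WT replicate 2, the same libraries that held the extremes of Vegfa.

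Angpt2, its relative and partial antagonist, was scarce: 4.3, 5.03, 2.4 and 4.25 CPM in WT and 3.31, 7.51, 1.5 and 1.17 CPM in Pdgfra-Cre:LmnaF/F. The Pdgfra-Cre:LmnaF/F libraries fell on both sides of the WT range, replicate 2 above it and replicates 3 and 4 below it. The log2 fold change was -0.24 with a wide 95% interval of -2.29 to 1.82 (edgeR adjusted p = 0.961), and it was 0.05 without Pdgfra-Cre:LmnaF/F replicate 4. Angpt2 lies within the span of Mcph1 on the opposite strand, with no shared exon base.

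Because TEK binds both angiopoietins, their balance was set out per kilobase (kb) of exon within each library. On that scale, log2 Angpt2 minus Angpt1 was -1.47, -1.88, -2.82 and -1.09 in the 4 WT libraries and -1.42, -0.02, -2.86 and -3.57 in the 4 Pdgfra-Cre:LmnaF/F libraries. Angpt1 was at 2.13-fold to 7.04-fold the level of Angpt2 in WT and at 2.68-fold to 11.8-fold in 3 Pdgfra-Cre:LmnaF/F libraries, while in replicate 2 of that group both were at about the same level (1.01-fold). The mean difference was -1.81 ± 0.74 in WT and -1.97 ± 1.57 in Pdgfra-Cre:LmnaF/F (SD, n = 4 each), so the genotype means lay well within the spread of either group.

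Angptl4, an inhibitor of lipoprotein lipase that is also secreted by hypoxic and fasting tissues, was the most variable of the 10 among the Pdgfra-Cre:LmnaF/F libraries, though not in WT. It was at 112, 73, 53.4 and 37.2 CPM in the 4 WT libraries and at 127, 273, 17.6 and 6.17 CPM in the 4 Pdgfra-Cre:LmnaF/F libraries. The Pdgfra-Cre:LmnaF/F libraries were split, 2 above every WT library and 2 below every WT library. The highest of them was 44.3 times the lowest, against 3.01 times in WT, and 1.09% of all tested genes had a larger SD of log2 CPM among the Pdgfra-Cre:LmnaF/F libraries. The log2 fold change of 0.62 therefore carried a 95% interval of -2.09 to 3.33 (edgeR adjusted p = 0.898), and it was -0.45 without Pdgfra-Cre:LmnaF/F replicate 2.

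Angptl4 is a classic target of both PPAR nuclear receptors and glucocorticoids. Of 14 PPAR genes, targets and related genes of fatty acid use, all tested, none was called, and their summed level was 1024, 1472, 941 and 1460 CPM in the 4 Pdgfra-Cre:LmnaF/F libraries. In WT the sum ran from 1000 to 1527 CPM. Glucocorticoid targets summed to 1893, 3296, 1726 and 2057 CPM in the 4 WT libraries and to 1960, 1912, 3498 and 6990 CPM in the 4 Pdgfra-Cre:LmnaF/F libraries. The part of these transcripts in the Angptl4 spread was not tested.

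Hgf, the ligand of MET, was at 1.78, 2.52, 13.3 and 4.56 CPM in WT and 6.41, 12.5, 2.19 and 3.75 CPM in Pdgfra-Cre:LmnaF/F. In each genotype 1 library, WT replicate 3 and Pdgfra-Cre:LmnaF/F replicate 2, stood above the other 6. On the log2 scale the difference was 0.16 (95% interval -1.56 to 1.87; edgeR adjusted p = 0.967), and it was -0.44 without Pdgfra-Cre:LmnaF/F replicate 2. In the shallow WT replicate 2 the value rests on 5 counts, with an exact Poisson 95% interval of 0.817 to 5.87 CPM.

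Fgf2, the broadly acting basic fibroblast growth factor, was at 67, 47.8, 57.2 and 76.8 CPM in the 4 WT libraries and 63.4, 68.3, 79.7 and 18 CPM in the 4 Pdgfra-Cre:LmnaF/F libraries. Replicate 4 of Pdgfra-Cre:LmnaF/F, the library highest for myocyte and leukocyte markers, lay far under a narrow band formed by the other 7 libraries. Whether other cells bear on the value was not tested. With all 8 libraries the log2 fold change was -0.13 (95% interval -0.86 to 0.61; edgeR adjusted p = 0.939), and without Pdgfra-Cre:LmnaF/F replicate 4 it was 0.17. The gene shares 640 bases of exon with Nudt6 on the opposite strand, and the strand setting of the counting is not given in the sources used here. Nudt6 had 14, 0, 0 and 7 counts in WT and 0, 1, 31 and 15 counts in Pdgfra-Cre:LmnaF/F, too few to be tested. Angpt1 and Fgf10 also share 737 and 123 exon bases with the annotated antisense genes Gm17473 and Gm16263, and Hgf and Fgf2 share 484 and 255 exon bases with Gm43489 and Gm43439 on their own strand, none of which was analysed here, so the counts of these factors are uncertain to that extent.

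Fgf7, a growth factor for epithelium also called keratinocyte growth factor, was at 5.7, 2.52, 15.2 and 6.01 CPM in WT and 5.9, 4.48, 29 and 1.83 CPM in Pdgfra-Cre:LmnaF/F. Replicate 3 was the highest library of either genotype, and the numbers do not pair the libraries. With all 8 libraries its log2 fold change was 0.46 (95% interval -1.16 to 2.08; edgeR adjusted p = 0.883), and it turned to -0.87 without Pdgfra-Cre:LmnaF/F replicate 3.

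Fgf10, which shares its receptor with Fgf7 and marks mesenchyme that addresses epithelium, was at 1.59, 13.6, 13.1 and 5.69 CPM in WT and 1.86, 16.4, 4.84 and 3.83 CPM in Pdgfra-Cre:LmnaF/F. Replicate 1 was lowest and replicate 2 highest in each genotype, over an 8.55-fold range in WT and an 8.79-fold range in Pdgfra-Cre:LmnaF/F. Between genotypes the log2 fold change was -0.31 (95% interval -1.96 to 1.34; edgeR adjusted p = 0.931), and it was -1.25 without Pdgfra-Cre:LmnaF/F replicate 2 and 0.00 without WT replicate 3.

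**Figure D3:**
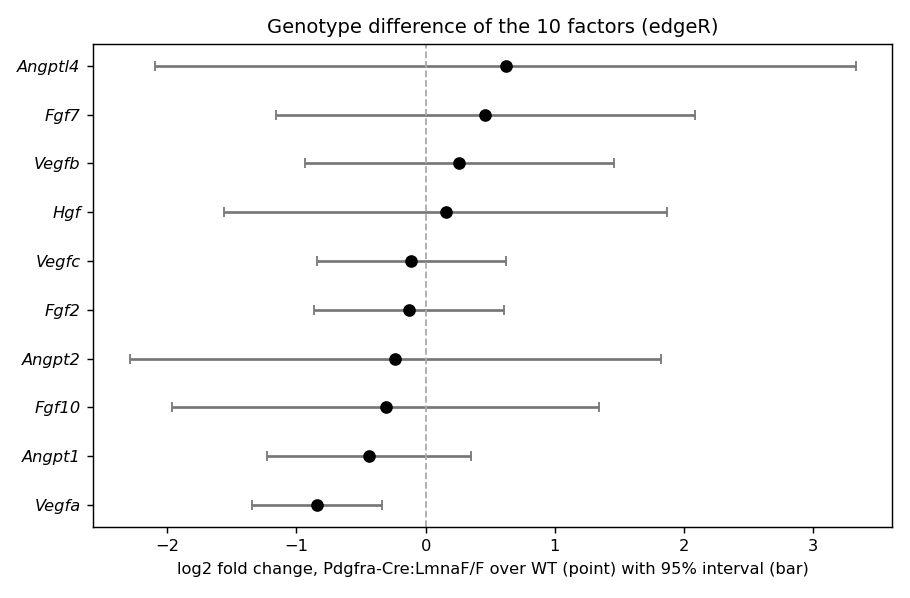
Log2 fold change of each factor, Pdgfra-Cre:LmnaF/F over WT (horizontal axis, log2 units), from the edgeR fit to 4 libraries a group. Points are estimates and bars 95% intervals; the bar of Vegfa, -1.34 to -0.34, is clear of 0, and the other 9 bars cross it.

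Few libraries held most of the extremes. Pdgfra-Cre:LmnaF/F replicate 4 was the lowest of the 8 for 4 factors, Angpt2, Angptl4, Fgf2 and Fgf7, and the highest for none. Pdgfra-Cre:LmnaF/F replicate 2 was the highest for Angpt2, Angptl4 and Fgf10 and the lowest for Vegfa and Angpt1, while Pdgfra-Cre:LmnaF/F replicate 3 was the highest for Vegfb, Fgf2 and Fgf7. WT replicate 4 and Pdgfra-Cre:LmnaF/F replicate 1 held neither extreme for any factor. In the Pdgfra-Cre:LmnaF/F group 7 of the 10 factors spanned more than 3-fold between libraries, against 5 in WT. The SD of log2 CPM was the larger in Pdgfra-Cre:LmnaF/F for 5 of the 10, where 59.5% of all tested genes showed the same, so a wider spread was not particular to these factors.

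**Figure D4:**
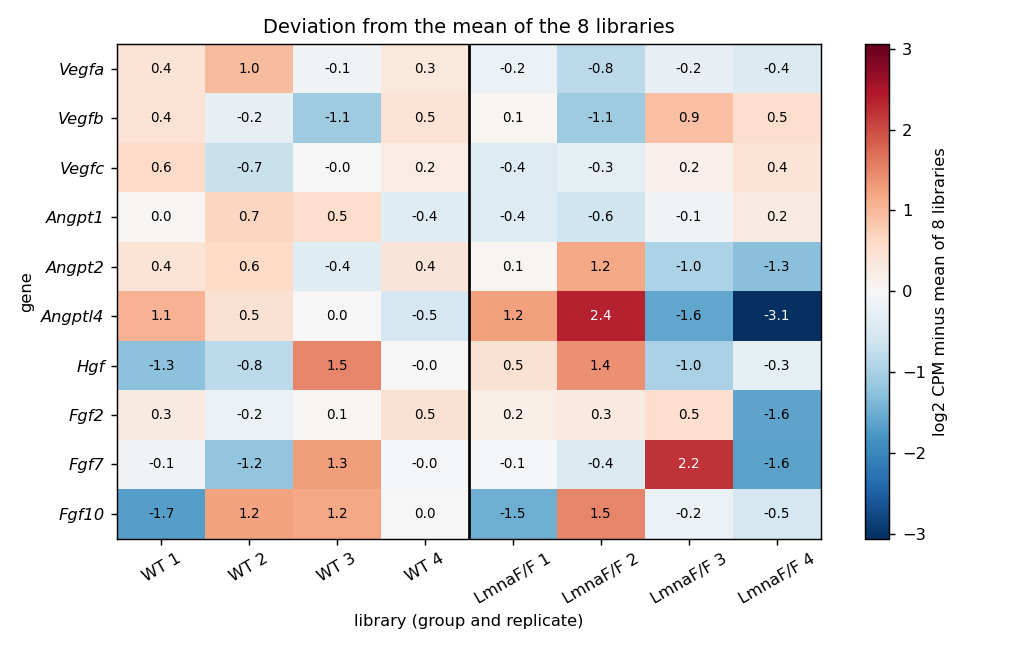
Log2 CPM of each factor (vertical) in each library (horizontal; LmnaF/F is Pdgfra-Cre:LmnaF/F) minus its mean over the 8 libraries, with the value in each cell. Red is above and blue below the mean; Angptl4 runs from 2.36 in replicate 2 to -3.06 in replicate 4 of Pdgfra-Cre:LmnaF/F, and Vegfa is below 0 in all 4 Pdgfra-Cre:LmnaF/F libraries.

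The levels of the 10 factors were set against each other as CPM per kb of exon. In WT, Vegfa came first at 31.5 ± 9.97, followed by Angptl4 at 19.4 ± 9.1, Vegfc at 9.33 ± 3.23 and Fgf2 at 9.17 ± 1.84 CPM per kb (SD, n = 4). Vegfb at 5.29 ± 2.34 and Angpt1 at 3.82 ± 1.19 CPM per kb lay near the median of 5.71 CPM per kb over all tested genes. Fgf7, Fgf10, Angpt2 and Hgf were the scarcest, with WT means of 2.26, 1.85, 1.08 and 0.769 CPM per kb. Each factor's range over the WT libraries overlapped that of its next neighbour, while Vegfa did not overlap with Hgf; differences within a library were not tested. The order depends in part on the length used: with the longest transcript, Hgf was at 1.59 and Angpt2 at 1.12 CPM per kb in WT, so that Angpt2 came last, and Fgf2 at 10.4 stood above Vegfc at 9.33 CPM per kb. Without WT replicate 3, Hgf was at 0.41 and Fgf7 at 1.46, the latter then below Fgf10 at 1.51 CPM per kb. In Pdgfra-Cre:LmnaF/F the mean of Angptl4, 29.9 ± 35 CPM per kb, was above that of Vegfa, 17.5 ± 3.08 CPM per kb, and the 2 ranges overlapped. That order rests on replicate 2, without which Angptl4 was at 14.2 and Vegfa at 18.9 CPM per kb.

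**Figure D5:**
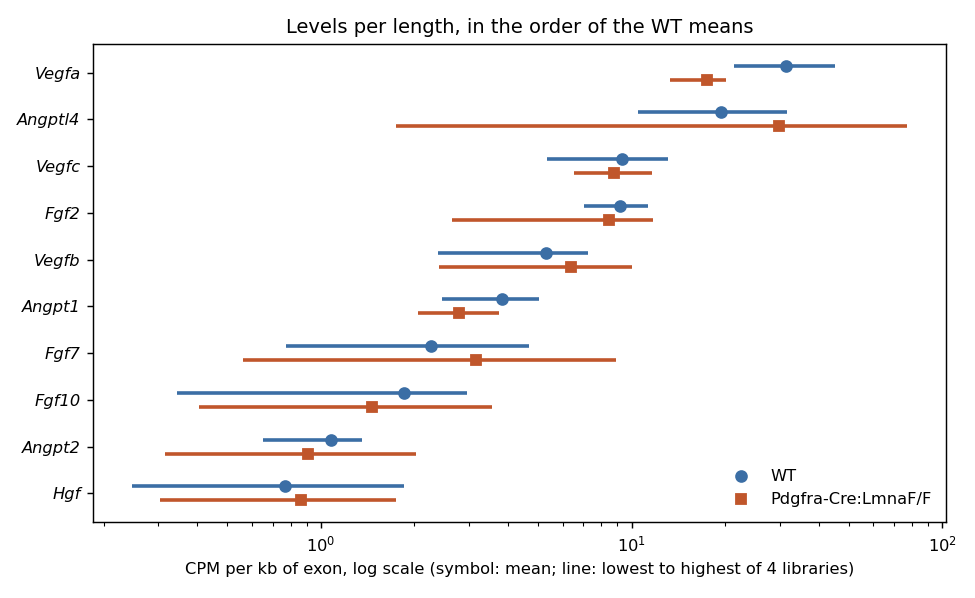
CPM per kb of exon (horizontal axis, log scale) of the 10 factors, ordered by their WT means. Symbols are means of 4 libraries and lines run from the lowest to the highest library; the WT line of each factor overlaps that of the next, and Angptl4 has the longest line, from 1.74 to 77.1 CPM per kb in Pdgfra-Cre:LmnaF/F.

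Relatives of these ligands were counted in a list of 15, of which 13 were tested and none was called, with 5 fitted values above 0 and 8 below and a median log2 fold change of -0.33. Without Pdgfra-Cre:LmnaF/F replicate 4 they were 4 above and 9 below with a median of -0.13. Angptl2, an angiopoietin-like factor linked to inflammation, was the most abundant of them at 318 ± 45.2 CPM per kb in WT, and placental growth factor (Pgf), a ligand of FLT1, followed at 44.4 ± 18.7 CPM per kb (SD, n = 4 each). Both means were above that of any of the 10 factors in WT. The lowest p belonged to Fgf18, a growth factor of cartilage and bone, which was at 8.97, 12.1, 14.1 and 10.7 CPM in WT and 4.14, 2.92, 2.99 and 1.42 CPM in Pdgfra-Cre:LmnaF/F. All 4 Pdgfra-Cre:LmnaF/F libraries were below all WT libraries. Its log2 fold change was -1.99 (95% interval -3.31 to -0.68), with an adjusted p of 0.187 in edgeR and 0.0186 in DESeq2.

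Of 15 receptor and coreceptor genes, 13 were tested and none was called, with 5 fitted values above 0 and 8 below and a median of -0.17. Without Pdgfra-Cre:LmnaF/F replicate 4 the counts were the same and the median was -0.29. Tek, the angiopoietin receptor, had the highest level of the list, 100 ± 14.8 CPM per kb in WT, beside 9.05 ± 1.32 for the endothelial marker Pecam1 and 11.4 ± 2.43 for Cdh5 (SD, n = 4 each). Fgfr1 and the VEGF coreceptor Nrp1 followed at 37.9 and 29 CPM per kb. Receptors of the remaining ligands were lower, with Kdr at 5.01, Flt4 at 1.54, Flt1 at 1.51, Fgfr2 at 0.537 and Met at 0.368 CPM per kb in WT.

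Tek also had the lowest p of the receptors. It was at 488, 377, 484 and 543 CPM in the 4 WT libraries and 342, 296, 287 and 329 CPM in the 4 Pdgfra-Cre:LmnaF/F libraries. The groups did not overlap, and the shallow WT replicate 2 was the WT library nearest to the other group. The log2 fold change was -0.59 (95% interval -0.99 to -0.19), with an adjusted p of 0.194 in edgeR and 0.0285 in DESeq2. Tek made up much of the summed endothelial markers given above, so those sums and Tek are not separate measurements.

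Genes that hold, cleave or present these ligands, such as heparan sulfate proteoglycans and proteases, numbered 17, of which 16 were listed and 15 tested, with none called, 10 fitted values above 0 and 5 below and a median of 0.05. Without Pdgfra-Cre:LmnaF/F replicate 4 the balance turned, to 5 above and 10 below with a median of -0.19. The lowest p was that of Adamts1, a protease that can bind VEGFA and release it from or hold it in matrix. It was at 192, 216, 244 and 202 CPM in WT and 315, 371, 539 and 350 CPM in Pdgfra-Cre:LmnaF/F. Every Pdgfra-Cre:LmnaF/F library was above every WT library. The log2 fold change was 0.88 (95% interval 0.44 to 1.32), with an adjusted p of 0.0783 in edgeR and 0.00342 in DESeq2. With 1 library left out, edgeR gave adjusted p-values of 0.0457, without Pdgfra-Cre:LmnaF/F replicate 4, to 0.246, without WT replicate 4, and called Adamts1 in 1 of the 8 fits, while voom (0.0286) and edgeR without the filter (0.0144) called it with all libraries. Without Pdgfra-Cre:LmnaF/F replicate 4, Thbs1, a matrix protein that restrains vessel growth, was called higher as well (log2 fold change 2.10, edgeR adjusted p = 0.0113), and its value in that library, 278 CPM, was within its WT range of 257 to 375 CPM.

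Among 14 genes that report or dampen FGF and MET signalling, all tested and none called, 9 fitted values were above 0 and 5 below, with a median of 0.21. Dusp4, a phosphatase that switches off MAP kinases and is itself raised by their activity, had the lowest p. It was at 3.18, 2.01, 6.23 and 2.38 CPM in WT and 17.1, 13.2, 15.9 and 22.8 CPM in Pdgfra-Cre:LmnaF/F. The groups lay far apart for a low-level gene, with a log2 fold change of 2.29 (95% interval 1.19 to 3.39). The adjusted p was 0.0672 in edgeR and 0.0015 in DESeq2. With 1 library left out, edgeR gave adjusted p-values of 0.0234, without WT replicate 3, to 0.223, without WT replicate 4, and called Dusp4 in 1 of the 8 fits. Voom (adjusted p = 0.0198), edgeR without the filter (0.0199) and 1 RUVr factor in edgeR (0.0361) called it too.

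Vegfa and Angptl4 both respond to low oxygen in many cells. Of 22 hypoxia response genes, 21 were tested and none was called, with 13 fitted values above 0 and 8 below and a median of 0.16. Without Pdgfra-Cre:LmnaF/F replicate 4 they were 12 above and 9 below with a median of 0.01. The part of hypoxia signalling in the values of Vegfa and Angptl4 was not tested. Kdm3a, a histone demethylase induced by hypoxia, had the lowest p, at 53.9 ± 7.99 CPM in WT and 86.6 ± 26.2 CPM in Pdgfra-Cre:LmnaF/F (SD, n = 4 each; log2 fold change 0.68, edgeR adjusted p = 0.259). Its groups overlapped.

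In the list of PPAR targets 7 fitted values were above 0 and 7 below, with a median of -0.03, and the lowest p was that of the mitochondrial carrier Ucp2 (log2 fold change -1.66, edgeR adjusted p = 0.355). With 1 library left out the value of Ucp2 ran from -2.55 without Pdgfra-Cre:LmnaF/F replicate 4 (edgeR adjusted p = 0.0392, the only call in the 8 fits) to -1.04 without WT replicate 3 (0.543). Of 12 glucocorticoid targets, 11 were tested and none was called, with a median of 0.96 and 9 of 11 above 0. The metallothionein Mt1 had the lowest p (log2 fold change 1.78, edgeR adjusted p = 0.308), with its highest value, 328 CPM, in Pdgfra-Cre:LmnaF/F replicate 4. Without that library Mt1 was at 1.02 (edgeR adjusted p = 0.229), and the median of the list was 0.24, with 7 of 11 above 0.

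In the edgeR fit with the filter and all libraries, the early response list was the only 1 of these 8 in which genes were called. Of 22 genes, all tested, 3 rose and none fell at an adjusted p under 0.05, where 0.176% of all genes were called higher, and the median was 1.31. Ier3, an immediate early survival gene, rose from 16.3 ± 5.58 to 58.8 ± 18.4 CPM, Btg2, an antiproliferative early gene, from 308 ± 167 to 1301 ± 406 CPM, and Atf3, a stress transcription factor, from 8.74 ± 4.11 to 40.4 ± 27.4 CPM (SD, n = 4 each). Their edgeR adjusted p-values were 0.0161, 0.0325 and 0.0467, and of the 8 fits that leave out a library Ier3 was called in 6, Btg2 in 3 and Atf3 in 2. Their highest adjusted p-values in these edgeR fits were 0.0594 for Ier3 and 0.191 for Atf3, both without Pdgfra-Cre:LmnaF/F replicate 3, and 0.131 for Btg2 without WT replicate 4. Atf3, at a log2 fold change of 2.18 in the edgeR fit with all libraries, also lost its call with voom (1.70, adjusted p = 0.0964), upper-quartile factors (2.16, 0.0504), 1 RUVr factor in edgeR (2.17, 0.0646) and the Y-linked covariate (2.01, 0.0847), and with WT replicate 2 and Pdgfra-Cre:LmnaF/F replicate 4 both left out (2.18, 0.0953). Btg2, at 2.08, lost its call with voom (2.41, adjusted p = 0.0913). In the libraries with Y-linked transcripts alone, where Pdgfra-Cre:LmnaF/F has 1 library, Atf3 was at 1.61 and Btg2 at 2.34, and in those without, where WT has 1 library, Ier3 was at 1.55 beside 1.88 with all libraries; none of these 3 values was called in edgeR.

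The tested genes whose log2 CPM followed Vegfa most closely over the 8 libraries were Ccdc6 (Pearson r = 0.988), Eif2ak3 (0.978), Pcdhga7 (0.975), Arhgap23 (0.974) and Git1 (0.970). The points share libraries and depth, and these r values were chosen as the highest of all tested genes, so they describe a likeness of pattern and carry no test. Like Vegfa, all 5 were highest in WT replicate 2 and lowest in Pdgfra-Cre:LmnaF/F replicate 2. Their log2 fold changes ran from -0.85 for Git1 to -0.24 for Eif2ak3, and none was called in the edgeR fit with the filter. DESeq2 called Git1 (adjusted p = 0.0252) and Ccdc6 (0.0431), and edgeR without the filter called Git1 (0.0404).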

How the data were processed

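The authors prepared strand-specific, ribosomal RNA depleted libraries from RNA with an integrity number above 8, and used HISAT2 to place the 150 bp paired-end reads on mm10 and featureCounts to count them over GENCODE genes. In the study, genes were called with DESeq2 and normalization for unwanted variation (RUV). The nearest fit here, DESeq2 with 1 RUVr factor, called Vegfa lower (adjusted p = 0.00615). The deposited values are raw counts, not scaled for depth, for 18957 genes in each of 8 libraries. The GENCODE release, the strand setting and the tool versions are not given in the sources used here.

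Counts of all genes were fitted with edgeR 4.0.16 (R 4.3.3; TMM factors, filterByExpr, robust glmQLFit, glmQLFTest) on genotype alone, and p-values were adjusted by the Benjamini-Hochberg method over the 13036 genes that passed the filter. Groups came from the labels. CPM are counts per 1000000 of the TMM-scaled total. Levels between genes were compared per kb of the union of GENCODE M21 exons, which 18918 of the symbols matched. The log2 deviations used a prior count of 2. DESeq2 1.42.0, limma 3.58.1 (voom), other factors and filters, 1 RUVr factor, thinning to 2080555 counts, Y-linked expression as a covariate, a replicate block and leaving out each library were alternatives. The fits were tested on simulated data. The 10 factors and all gene lists were chosen with earlier results of these data known. Genes named were the 10 factors, Lmna, the called genes and the lowest p of each pathway list, annotated overlapping genes with shared exons, and the 5 genes most like Vegfa. Other genes given with values (the most abundant relatives, the receptors of the 10 factors, markers, and Thbs1 and Cdh5) were chosen after their values were seen.

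Depth limits the scarce factors. Across the 8 libraries the 10 factors had 5 to 2619 counts, all above a set floor of 3 counts, and exact Poisson intervals (95%) cover counting error only.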

Additional observations from a re-analysis of the deposited data

Results flagged for a closer look

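In 44 groups of 4 libraries (22 named genes in each genotype), a single library lay far from the other 3 by Dixon's test at 95% for 2 groups, and chance marks about 1 in 20 groups. Fgf7 was at 29 CPM in Pdgfra-Cre:LmnaF/F replicate 3 against 1.83 to 5.9 CPM in the other Pdgfra-Cre:LmnaF/F libraries. Ier3 was at 86.2 CPM in the same library against 47.3 to 51.5 CPM in the other 3. That library was also the highest for Vegfb, Fgf2, Atf3 and Btg2.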

How the results depend on the processing

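Lmna remained called lower in all 22 alternative fits, with log2 fold changes between -2.03 and -1.56. Vegfa stayed below 0 in all 22 as well, a sign that omitting or splitting libraries could hardly turn, as its groups did not overlap. It was called at -0.84 with DESeq2, -0.86 with edgeR without the filter and -0.82 with 1 RUVr factor in DESeq2. In the libraries with Y-linked transcripts alone, with 1 Pdgfra-Cre:LmnaF/F library, Vegfa was at -1.04. In those without, with 1 WT library, it was at -0.28. Leaving out 1 library gave -0.99 to -0.62 for Vegfa, with edgeR adjusted p-values of 0.0642 to 0.404. The count of factors called, 0, became 1 in each of the first 3 of those fits, all Vegfa, stayed 0 with each library left out, and became 2 in the libraries with Y-linked transcripts, where Fgf2 (-1.88, edgeR adjusted p = 0.000502) joined it. In that fit 1415 of 15367 genes were called, 778 of them lower, so calls were frequent throughout. It holds 1 Pdgfra-Cre:LmnaF/F library, replicate 4, which is assumed to vary like the others.

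The other 9 factors each changed sign in at least 1 fit, and none of them was called in a fit with more than 1 library in each group. Signs turned for Vegfb with voom (-0.16), for Vegfc with thinning (0.06), with the Y-linked covariate (0.05) and in libraries with Y-linked transcripts (0.20), and for Angpt1 in those libraries (0.08). Angpt2 turned in libraries without Y-linked transcripts (0.78) and with WT replicate 2 and Pdgfra-Cre:LmnaF/F replicate 4 both left out (0.17), as did Fgf2 (0.31 and 0.07), and Fgf10 turned with both left out (0.19). Angptl4 turned with voom (-0.17), the Y-linked covariate (-0.96) and in libraries with Y-linked transcripts (-3.62), Hgf with thinning (-0.08), the covariate (-0.22) and in libraries without Y-linked transcripts (-0.91), and Fgf7 with the covariate (-0.54) and in libraries with (-1.44) or without (-0.21) Y-linked transcripts. With 1 library left out, the ranges were -0.04 to 0.53 for Vegfb, -0.29 to 0.10 for Vegfc, -0.62 to -0.29 for Angpt1, -0.99 to 0.05 for Angpt2, -0.45 to 1.02 for Angptl4, -0.44 to 1.06 for Hgf, -0.33 to 0.17 for Fgf2, -0.87 to 1.07 for Fgf7 and -1.25 to 0.00 for Fgf10. Ucp2 turned to 0.19 in libraries with Y-linked transcripts and was at -3.57 in those without, where WT replicate 3, the highest for Ucp2, is the lone WT library. The causes were not tested.

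Same-numbered libraries did not deviate together (r = -0.03 to 0.04), so the numbers were not taken to pair them. With a replicate block, Vegfa was at -0.80 (edgeR adjusted p = 0.27), Angptl4 turned to -0.53 and 51 genes were called in place of 53.

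The number of genes called was 303 with DESeq2, 123 with voom, 282 without the filter, 84 with RUVr in edgeR, 457 with RUVr in DESeq2, 109 with the covariate, 306 of 15528 in libraries without Y-linked transcripts alone, and 20 to 83 with 1 library left out. The Y-linked splits and the joint omission of both libraries were chosen after seeing the data. With the longest transcript as length, Vegfa in Pdgfra-Cre:LmnaF/F was at 21.7 and Hgf at 1.59 (WT) and 1.79 (Pdgfra-Cre:LmnaF/F) CPM per kb, and Hgf then stood above Angpt2, and Fgf2 above Vegfc, in both genotypes.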
